A study of Gallus gallus with 6 samples.

Results

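The genes of mitochondrial protein import and of the channels and carriers of the mitochondrial membranes were examined in lens fiber cells and lens epithelial cells of the embryonic chick. Members were chosen by symbol. Genes whose symbol begins with TOMM, TIMM or PMPC, together with SAMM50, MTX2 and MTX3, made up the import machinery, with 22 genes. The SLC25A genes (35, among them SLC25A17, a carrier of the peroxisome) and the voltage-dependent anion channels VDAC1 and VDAC2 made up the channels and carriers, with 37 genes. These are 59 of the 16561 entries of the table, and 56 of them averaged 0.5 FPKM or more across all libraries and were tested. The other three, SLC25A40, SLC25A47 and SLC25A48, were listed at 0 in all 6 libraries.

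Expression was measured by RNA-seq of White Leghorn lenses at embryonic day 13, in 3 libraries of fiber cells and 3 libraries of epithelial cells. Each library came from the microdissected cells of several pooled lenses, and the labels name no treatment or mutation in either group. The fiber samples joined peripheral and central fibers, and the epithelial samples joined central and equatorial epithelium. Values are FPKM, the fragments assigned to a gene per kilobase of its transcript, scaled to the mapped fragments of the library.

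Nearly all mitochondrial proteins are made in the cytosol from nuclear genes. The TOM complex of the outer membrane takes them in, the sorting and assembly machinery builds barrel-shaped proteins such as the VDAC channels into that membrane, and the TIM23 and TIM22 translocases pass proteins into or across the inner membrane. The processing peptidase then removes the targeting sequence. SLC25 carriers, themselves cargo of TIM22 and of the small TIM chaperones, exchange nucleotides, phosphate, amino acids and cofactors across the inner membrane. Lens fiber cells lose their mitochondria and other organelles late in differentiation. The roles given here are those known in yeast and mammals.

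Summed over all entries, the fiber libraries held 221749 to 232329 FPKM and the epithelial libraries 213591 to 220089 FPKM, and read depth is not known from these values. Pearson's r of log2 values across the tested entries was 0.978 to 0.982 among the fiber libraries, 0.976 to 0.980 among the epithelial libraries and 0.745 to 0.822 between the cell types. Lens fiber markers summed to 5848 to 6105 FPKM in fiber cells and 638 to 1109 FPKM in epithelial cells, and 5 of the 7 in the table were called higher, although DNASE2B was called lower. Lens epithelial markers summed to 202 to 260 FPKM in fiber cells and 856 to 980 FPKM in epithelial cells, and all 7 in the table were called lower. Among other cell types, markers of erythroid cells (10 of 16 listed were in the table) summed to 8.73 to 14.8 FPKM in fiber cells and 1.68 to 2.13 FPKM in epithelial cells, those of neural retina to 5.95 to 8.52 against 2.42 to 3.11 FPKM, those of pigment cells to 0.522 to 0.715 against 1.70 to 4.82 FPKM and those of endothelium to 0.536 to 1.05 against 2.71 to 3.90 FPKM. Those of muscle, connective tissue and immune cells summed to at most 7.72 FPKM in any library. Within these lists DCN (log2 fold change 1.34) and CD3E (3.96) were called higher in fiber cells, and KERA (-1.75), CD74 (-1.18) and ACTA1 (-1.35) lower. The part of these cells in the results below was not tested, apart from the values given beside single genes. In bulk samples such as these, fewer cells of a type and less RNA per cell cannot be told apart.

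Summed over genes and relative to the channels and carriers, fiber cells carried more import machinery mRNA than epithelial cells. Single import genes did not all follow their sum. With the deposited FPKM, 12 of the 22 had a negative log2 fold change (fiber over epithelial), where 75.4% of all tested entries did. The import machinery summed to 399, 418 and 364 FPKM in fiber cells, against 336, 332 and 345 FPKM in epithelial cells. The channels and carriers summed to 397, 407 and 387 FPKM in fiber cells, against 605, 558 and 569 FPKM in epithelial cells. The libraries of the cell types did not overlap for either sum as deposited. With each library scaled to its median entry the import sums still did not overlap (436 to 541 in fiber cells and 265 to 281 in epithelial cells), but the carrier sums did (464 to 526 in fiber cells and 462 to 477 in epithelial cells). Within a library, where no scaling between libraries enters, the import sum was 1.01, 1.03 and 0.94 times the carrier sum in fiber cells, against 0.555, 0.595 and 0.606 times in epithelial cells.

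Most of the lower carrier sum in deposited FPKM lay in 2 genes, the phosphate carrier SLC25A3 and the ADP/ATP carrier SLC25A6. Together they took 25.3 ± 2.48% of the channel and carrier sum in fiber cells and 48.3 ± 1.65% in epithelial cells (SD, n = 3 each). The remaining channels and carriers summed to 292, 315 and 283 FPKM in fiber cells, against 308, 299 and 289 FPKM in epithelial cells, and these overlapped. Without the VDAC channels as well, the other SLC25A carriers summed to 213, 222 and 212 FPKM in fiber cells, against 246, 235 and 238 FPKM in epithelial cells, lower in every fiber library. Both remainders were instead higher in every fiber library with the libraries scaled to their medians (1.52 and 1.37 times the epithelial mean) or to their 75th percentiles (1.23 and 1.11 times). Against the remainder that holds the channels, the import sum within a library was 1.33 ± 0.0399 times as high in fiber cells and 1.13 ± 0.0541 times in epithelial cells (SD, n = 3 each), with no overlap. All these carrier sums include the peroxisomal SLC25A17, at 25.2 ± 2.83 FPKM in fiber cells and 18.1 ± 1.76 FPKM in epithelial cells (SD, n = 3 each).

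**Figure D1:**
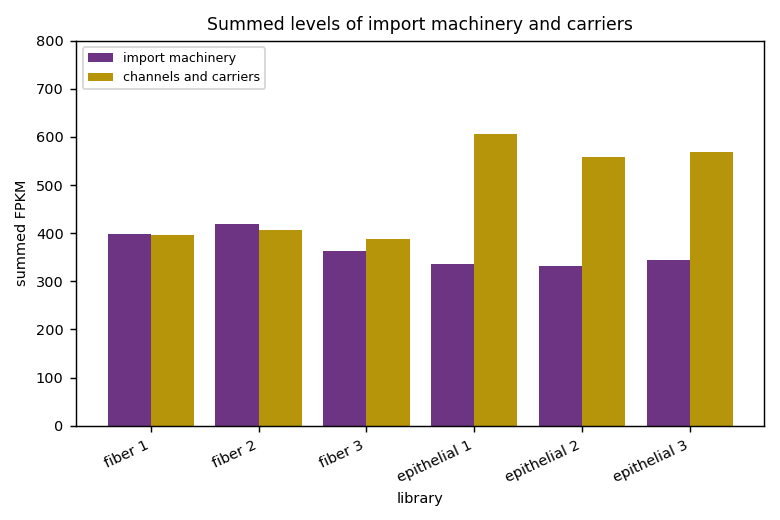
Summed FPKM (y axis) of the 22 import machinery genes and of the 37 channel and carrier genes in each of the 6 libraries (x axis). In the 3 fiber libraries the bars are nearly equal, at 364 to 418 and 387 to 407 FPKM, whereas in the 3 epithelial libraries the carrier bars (558 to 605 FPKM) stand above the import bars (332 to 345 FPKM).

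Single genes were compared on the scale of log2(FPKM + 0.1) by limma, with Benjamini-Hochberg adjustment over all 10818 tested entries, and calls required an adjusted p under 0.05 together with a change beyond 0.4 in either direction on the log2 scale. Fold changes are fiber over epithelial, and the added 0.1 FPKM makes those of low genes smaller. In the import machinery, calls of higher expression were made for 5 of 22 genes (22.7%) and of lower expression for 6 (27.3%). Of the tested channels and carriers, 7 of 34 were called higher (20.6%) and 16 were called lower (47.1%). Those called lower include SLC25A29 and SLC25A37, which passed the filter of 0.5 FPKM only through their epithelial libraries, so that their direction was fixed. Over all tested entries, 13.1% were called higher and 57.7% lower. The median log2 fold change was -0.088 for the import machinery, -0.28 for the channels and carriers and -0.62 for all tested entries.

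Because the middle of all entries lay at -0.62, each change was also taken with the libraries centred on their medians, that is relative to the median gene. On this scale 13 import genes were called higher and 1, TIMM44, lower, and 16 channels and carriers were called higher and 8 lower, where 30.2% of all tested entries were called higher and 29.3% lower. The 12 members called higher with the deposited FPKM were called higher under centring, 75th percentile scaling and quantile normalization as well. Centring raised every fold change by the same amount, and the other scalings raised the medians of both groups of members. Members called higher as deposited were thus nearly bound to keep their calls, which adds no support. SLC25A3, SLC25A6, SLC25A13, SLC25A15, SLC25A26, SLC25A29 and SLC25A30 were called lower under each of these scalings. For SLC25A29 this adds no support, because it passed the filter of 0.5 FPKM only through its epithelial libraries, which fixed its direction. In 7 members the 6 values were identical to those of other entries in the table, as given where such a gene is described, and cannot be assigned to that gene alone. Without them, with the deposited FPKM, 5 of 21 import genes were called higher (23.8%) and 5 lower (23.8%). Of 28 channels and carriers, 7 were called higher (25%) and 13 lower (46.4%), against 13.1% and 57.7% of all tested entries.

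**Figure D2:**
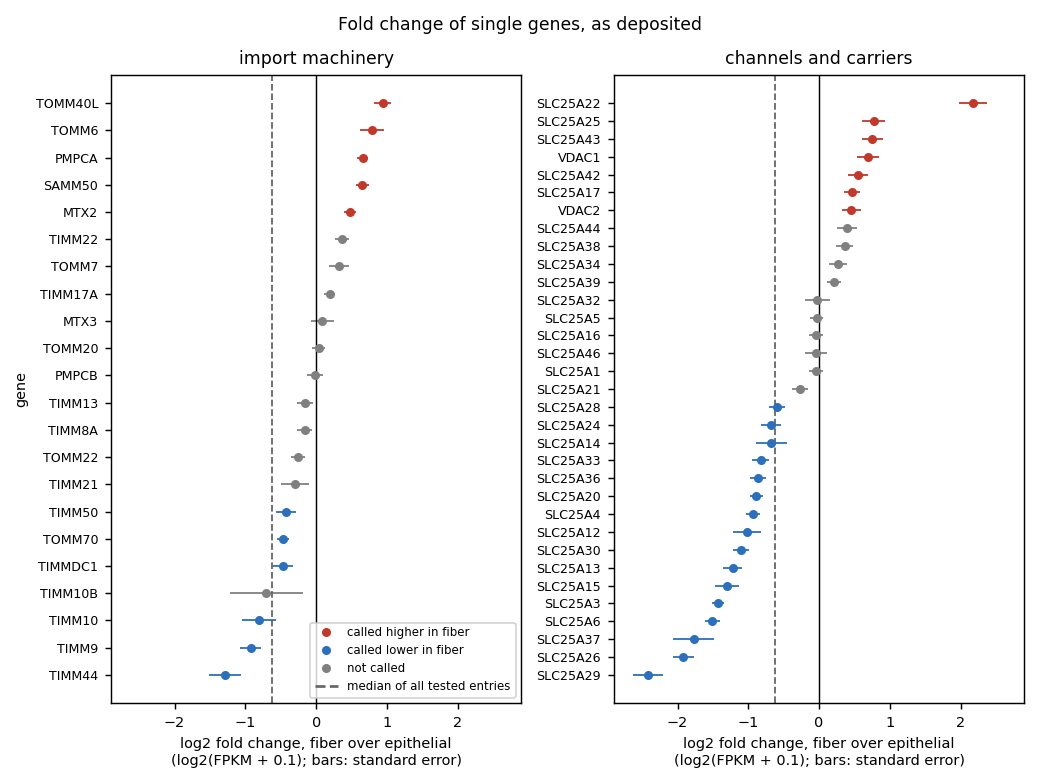
Log2 fold change (x axis, fiber over epithelial, on log2(FPKM + 0.1), with standard errors as bars) of the tested import machinery genes (left) and of the channel and carrier genes named in the text (right), coloured by call. Values run from -1.29 (TIMM44) to 0.94 (TOMM40L) for import and from -2.42 (SLC25A29) to 2.17 (SLC25A22) for carriers, with the dashed line at the median of all tested entries, -0.62.

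Subunits of the TOM complex did not move as one. TOMM40L, a paralog of the TOM channel protein TOMM40, had 41.2, 46.6 and 37.4 FPKM in fiber cells, against 22.1, 19.0 and 24.1 FPKM in epithelial cells. This rise was the largest of the import machinery (log2 fold change 0.94, standard error 0.12, limma adjusted p = 0.00016). TOMM6, a small subunit that stabilizes the complex, had 19.1, 23.8 and 15.1 FPKM in fiber cells, against 9.55, 12.4 and 11.2 FPKM in epithelial cells. In both genes every fiber library lay above every epithelial one, and TOMM6 rose as well (log2 fold change 0.79, standard error 0.17, limma adjusted p = 0.00313).

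With the deposited FPKM, the receptors of the complex were level or lower. TOMM20, the receptor for targeting sequences and the most abundant import mRNA here, had 61.1, 64.8 and 53.2 FPKM in fiber cells, against 56.5, 57.9 and 59.9 FPKM in epithelial cells. Its libraries overlapped, and its log2 fold change of 0.035 did not pass the test, but it was called higher relative to the median gene, at 0.64. TOMM70, the receptor on which carrier precursors dock, had 11.1, 11.3 and 10.3 FPKM in fiber cells, against 15.7, 15.2 and 14.2 FPKM in epithelial cells. It was called lower (log2 fold change -0.46, standard error 0.08, limma adjusted p = 0.00128), but lay at 0.15 relative to the median gene. The ratio of TOMM20 to TOMM70 within a library was 5.48 ± 0.282 in fiber cells and 3.88 ± 0.309 in epithelial cells (SD, n = 3 each; two-sided exact permutation p = 0.1, the smallest that 3 libraries against 3 allow). In all, 11 such ratios were compared, and a p of 0.1 became 0.183 after adjustment over them.

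TOMM7, another small subunit, had 56.3, 64.7 and 43.5 FPKM in fiber cells, against 42.8, 44.4 and 42.7 FPKM in epithelial cells. Its fiber replicate 3 fell within the epithelial range, and its log2 fold change of 0.32 was not called. Without that library it was called higher (0.48), as it was under centring (0.93), 75th percentile scaling (0.63) and quantile normalization (0.41). TOMM22, the central receptor, averaged 21.4 ± 0.517 FPKM in fiber cells and 25.8 ± 3.05 FPKM in epithelial cells (SD, n = 3 each) and was also not called, although its fiber libraries lay below the epithelial ones.

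Of the 3 genes of the sorting and assembly machinery, 2 were called higher in fiber cells, where 13.1% of all tested entries were. SAMM50, its barrel-shaped core subunit, had 30.8, 34.4 and 35.4 FPKM in fiber cells, against 20.3, 20.7 and 22.8 FPKM in epithelial cells. The metaxin MTX2, its partner on the cytosolic face, had 37.3, 38.3 and 35.4 FPKM in fiber cells, against 24.1, 28.4 and 27.2 FPKM in epithelial cells. Neither gene's libraries overlapped, and the log2 fold changes were 0.65 for SAMM50 (standard error 0.09, limma adjusted p = 0.000252) and 0.48 for MTX2 (standard error 0.09, limma adjusted p = 0.00126). MTX3, a metaxin of low level, averaged 3.28 ± 0.227 FPKM in fiber cells and 3.12 ± 0.609 FPKM in epithelial cells (SD, n = 3 each) and was not called with the deposited FPKM. It was called higher under centring (0.69) and quantile normalization (0.76). When limma asked for a change larger than 0.4 rather than larger than 0, TOMM6 and MTX2 lost their calls, with adjusted p = 0.0509 and 0.300.

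**Figure D3:**
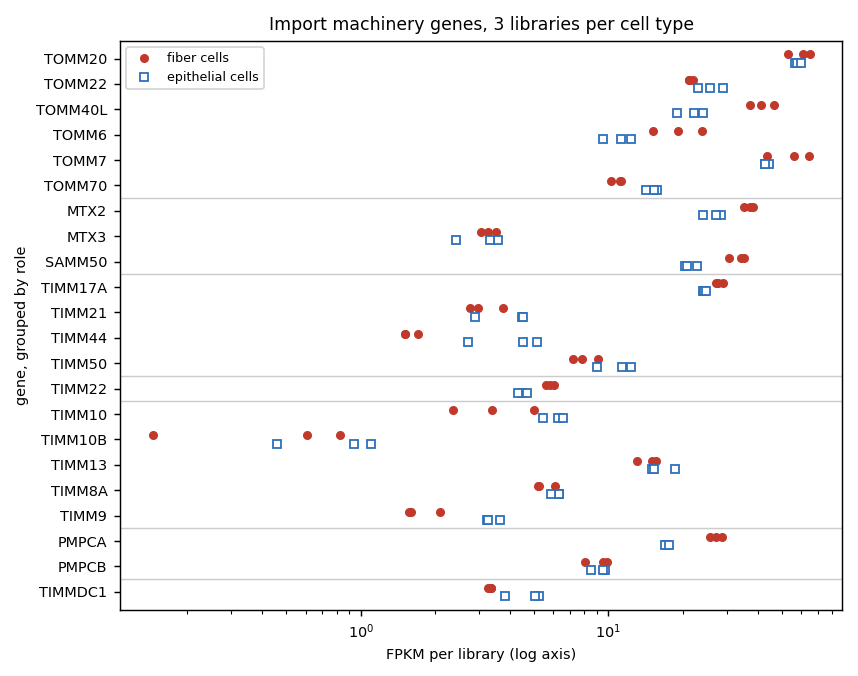
FPKM of each import machinery gene (log axis) in the 3 fiber libraries (filled circles) and the 3 epithelial libraries (open squares), with lines between role groups: TOM complex, sorting and assembly machinery, TIM23 and its motor, TIM22, small TIM chaperones, processing peptidase and TIMMDC1. Circles lie clear to the right of the squares for TOMM40L, SAMM50, MTX2 and PMPCA, and clear to the left for TIMM9 and TOMM70.

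The processing peptidase is a pair of subunits, and these differed. PMPCA, the subunit that binds targeting sequences, had 27.3, 25.7 and 28.6 FPKM in fiber cells, against 17.1, 16.9 and 17.5 FPKM in epithelial cells. PMPCB, the catalytic subunit, had 9.89, 9.48 and 8.05 FPKM in fiber cells, against 9.69, 8.50 and 9.47 FPKM in epithelial cells. Between these subunits, the libraries were apart for PMPCA (log2 fold change 0.66, standard error 0.08, limma adjusted p = 0.000112), while those of PMPCB overlapped at -0.016, or 0.59 relative to the median gene. The ratio of PMPCA to PMPCB was 2.76, 2.71 and 3.55 in fiber cells, against 1.76, 1.98 and 1.85 in epithelial cells (two-sided exact permutation p = 0.1).

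Of the 5 genes of the inner membrane translocases and the import motor, 2 were called lower with the deposited FPKM, where 57.7% of all tested entries were. TIMM17A, a core subunit of TIM23 whose entry also bears the symbol TIMM17B, had 28.9, 27.0 and 27.6 FPKM in fiber cells, against 24.1, 24.3 and 24.7 FPKM in epithelial cells. TIMM22, the channel of the carrier translocase, averaged 5.81 ± 0.209 FPKM in fiber cells and 4.49 ± 0.198 FPKM in epithelial cells (SD, n = 3 each). Both genes had all fiber libraries above all epithelial ones, but their log2 fold changes, 0.19 and 0.36, fell short of the threshold of 0.4. TIMM22 was called higher under centring, 75th percentile scaling and quantile normalization, and TIMM17A under the first pair of these. Over all tested entries, 16.1% had the fiber libraries above the epithelial ones in this way and 63.6% below, and among the import genes these were 7 and 6 of 22.

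TIMM50, the TIM23 receptor, had 9.04, 7.17 and 7.85 FPKM in fiber cells, against 12.3, 9.01 and 11.3 FPKM in epithelial cells. Its libraries overlapped, and it was called lower at a log2 fold change of -0.43 (limma adjusted p = 0.0221), yet the call was lost without fiber replicate 2 (-0.35) or 3 (-0.42) or epithelial replicate 1 (-0.34) or 3 (-0.40), and it lay at 0.18 relative to the median gene. TIMM44, which ties the import motor to the channel, had the lowest log2 fold change of the import genes, -1.29 (limma adjusted p = 0.000998), with 1.51, 1.51 and 1.70 FPKM in fiber cells, against 5.13, 4.53 and 2.71 FPKM in epithelial cells. The same values are listed for HNRNPM, a splicing regulator, so the decrease cannot be assigned to TIMM44 alone, and it was not called under quantile normalization. TIMM21 averaged 3.17 ± 0.520 FPKM in fiber cells and 3.96 ± 0.920 FPKM in epithelial cells (SD, n = 3 each) and was not called.

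The small TIM chaperones escort hydrophobic cargo between the membranes, and 2 of the 5 were called lower (40%, against 57.7% of all tested entries). TIMM9 had 2.10, 1.60 and 1.57 FPKM in fiber cells, against 3.66, 3.24 and 3.27 FPKM in epithelial cells (log2 fold change -0.92, standard error 0.15, limma adjusted p = 0.000597). Its partner in the same chaperone, TIMM10, had 4.99, 3.40 and 2.36 FPKM in fiber cells, against 5.44, 6.26 and 6.55 FPKM in epithelial cells (log2 fold change -0.81, standard error 0.24, limma adjusted p = 0.0148). In both, the fiber libraries lay below the epithelial ones, but relative to the median gene they lay at -0.31 and -0.20 and were not called. The other chaperone pair, TIMM8A and TIMM13, had log2 fold changes of -0.16 each and overlapped, and so did TIMM10B, which averaged 0.526 ± 0.347 FPKM in fiber cells and 0.831 ± 0.331 FPKM in epithelial cells (SD, n = 3 each). TIMMDC1 bears a TIMM symbol but is known as an assembly factor of respiratory complex I. It had 3.27, 3.36 and 3.35 FPKM in fiber cells, against 5.23, 3.81 and 5.03 FPKM in epithelial cells, and was called lower at -0.47 (limma adjusted p = 0.0138), a call lost without epithelial replicate 1 (-0.39) or 3 (-0.41).

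Among the carriers, SLC25A6 and SLC25A3, of the adenine nucleotide and phosphate group, were the most abundant in epithelial cells and showed the largest differences in FPKM. SLC25A6, an ADP/ATP carrier that exports ATP from the matrix, had 67.7, 56.0 and 66.9 FPKM in fiber cells, against 191, 167 and 183 FPKM in epithelial cells. SLC25A3, which imports the phosphate needed for ATP synthesis, had 37.0, 35.1 and 37.6 FPKM in fiber cells, against 107, 92.0 and 97.2 FPKM in epithelial cells. Every fiber library was far below every epithelial one. The log2 fold changes were -1.51 for SLC25A6 (standard error 0.10, limma adjusted p = 8.41e-06) and -1.43 for SLC25A3 (standard error 0.08, limma adjusted p = 4.86e-06), or -0.90 and -0.82 relative to the median gene. The ratio of SLC25A3 to SLC25A6 was 0.578 ± 0.0427 in fiber cells and 0.547 ± 0.0143 in epithelial cells (SD, n = 3 each; two-sided exact permutation p = 0.4).

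The ADP/ATP carrier paralogs parted. SLC25A5 had 46.2, 44.2 and 41.9 FPKM in fiber cells, against 49.9, 40.8 and 45.0 FPKM in epithelial cells. It overlapped and was not called at a log2 fold change of -0.034, although it was called higher relative to the median gene, at 0.57. SLC25A4, the paralog typical of heart and skeletal muscle in mammals, had 7.60, 8.79 and 8.04 FPKM in fiber cells, against 16.4, 14.6 and 15.9 FPKM in epithelial cells, and was called lower (log2 fold change -0.93, standard error 0.09, limma adjusted p = 4.91e-05). Relative to the median gene, SLC25A4 lay at -0.33 and was not called. Skeletal muscle markers summed to 0.739 to 1.35 FPKM in fiber cells and 1.50 to 1.63 FPKM in epithelial cells. The 1 marker tested, ACTA1, was called lower (log2 fold change -1.35), and MYOG was at 0 throughout.

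Together the 3 ADP/ATP carriers summed to 121, 109 and 117 FPKM in fiber cells, against 257, 222 and 244 FPKM in epithelial cells. The fiber mean was 0.480 times the epithelial mean as deposited and 0.732 times with the libraries scaled to their medians, where the sums were 140.1 to 147 in fiber cells and 184 to 203 in epithelial cells and still did not overlap. SLC25A5 made up 38.0%, 40.5% and 35.8% of that sum in fiber cells, against 19.4%, 18.4% and 18.4% in epithelial cells, while SLC25A6 made up 51.4% to 57.3% and 74.3% to 75.1%. The share of SLC25A4 overlapped, at 7.07 ± 0.917% in fiber cells and 6.48 ± 0.115% in epithelial cells (SD, n = 3 each). SLC25A5 stood at 0.683, 0.789 and 0.626 times SLC25A6 in fiber cells, against 0.261, 0.245 and 0.246 times in epithelial cells (two-sided exact permutation p = 0.1).

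**Figure D4:**
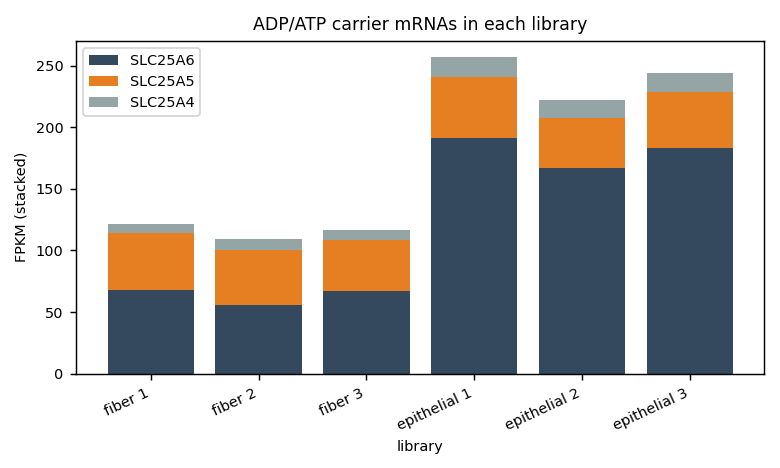
Stacked FPKM (y axis) of the ADP/ATP carriers SLC25A6, SLC25A5 and SLC25A4 in each of the 6 libraries (x axis). The full bars reach 109 to 121 FPKM in fiber cells and 222 to 257 FPKM in epithelial cells, while the SLC25A5 segment stays between 40.8 and 49.9 FPKM in all libraries.

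The ATP-Mg/phosphate carriers, which set the size of the matrix nucleotide pool, were called in opposite directions. SLC25A25 had 2.41, 2.32 and 2.36 FPKM in fiber cells, against 1.08, 1.41 and 1.59 FPKM in epithelial cells (log2 fold change 0.77, standard error 0.16, limma adjusted p = 0.00268). SLC25A24 had 2.37, 2.47 and 3.00 FPKM in fiber cells, against 4.73, 3.73 and 4.22 FPKM in epithelial cells (log2 fold change -0.67, standard error 0.14, limma adjusted p = 0.00253). Neither overlapped, and SLC25A24 lay at -0.066 relative to the median gene and was not called there.

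The VDAC channels let metabolites through the outer membrane. VDAC2 had 74.7, 90.2 and 67.7 FPKM in fiber cells, against 59.3, 61.5 and 48.6 FPKM in epithelial cells, and VDAC1 had 4.08, 3.05 and 3.27 FPKM in fiber cells, against 1.82, 2.41 and 2.10 FPKM in epithelial cells. Both were higher in every fiber library, with log2 fold changes of 0.45 for VDAC2 (limma adjusted p = 0.0135) and 0.69 for VDAC1 (limma adjusted p = 0.00422). VDAC2 was the most abundant of all members in fiber cells, at 1.24 ± 0.321 times SLC25A6, whereas in epithelial cells it stood at 0.315 ± 0.0522 times SLC25A6 (SD, n = 3 each). The call of VDAC2 was lost without fiber replicate 2 (0.34) or epithelial replicate 3 (0.35), and neither channel passed the test against 0.4.

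**Figure D5:**
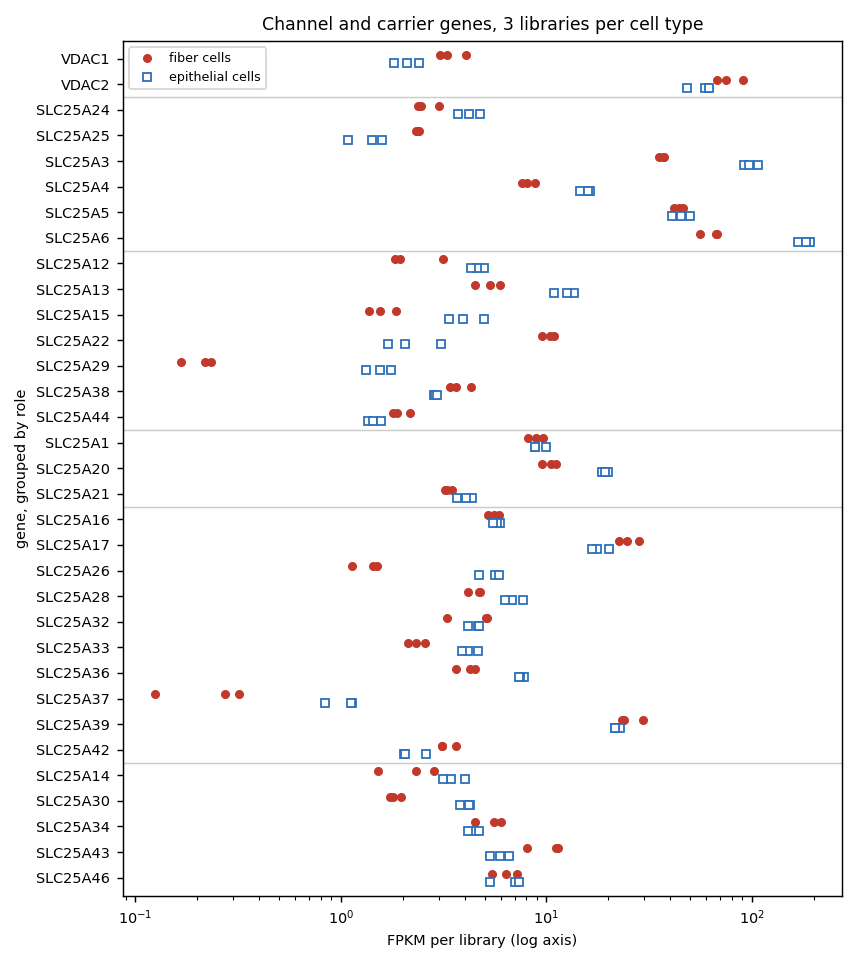
FPKM of the channel and carrier genes named in the text (log axis) in the 3 fiber libraries (filled circles) and the 3 epithelial libraries (open squares), with lines between role groups: outer membrane channels, adenine nucleotides and phosphate, amino acids, carboxylates and acylcarnitine, cofactors with nucleotides and metals, and others. The circles of SLC25A22 lie far to the right of its squares (9.57 to 10.8 against 1.69 to 3.05 FPKM), and those of SLC25A6, SLC25A3, SLC25A26 and SLC25A29 far to the left.

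The carriers of amino acids held the largest changes in both directions. SLC25A22, a glutamate carrier, had 9.57, 10.4 and 10.8 FPKM in fiber cells, against 1.69, 3.05 and 2.06 FPKM in epithelial cells. It rose 4.53-fold in mean FPKM (log2 fold change 2.17, standard error 0.20, limma adjusted p = 3.09e-05), with no overlap. SLC25A29, a carrier of basic amino acids, had 0.218, 0.167 and 0.234 FPKM in fiber cells, against 1.55, 1.32 and 1.76 FPKM in epithelial cells, and fell in every fiber library (log2 fold change -2.42, standard error 0.21, limma adjusted p = 2.57e-05). Its fiber mean of 0.206 FPKM lay under the filter of 0.5 FPKM. It passed only through its epithelial libraries, which fixed the direction of its change. SLC25A47, the next protein-coding gene to SLC25A29 in RefSeq's gene order for the GRCg7b chicken assembly, was listed at 0.

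The aspartate/glutamate carriers, part of the malate-aspartate shuttle that brings reducing equivalents into mitochondria, moved opposite to SLC25A22. SLC25A13 had 5.93, 4.49 and 5.33 FPKM in fiber cells, against 13.6, 10.8 and 12.6 FPKM in epithelial cells (log2 fold change -1.22, standard error 0.13, limma adjusted p = 7.73e-05). SLC25A12 had 3.13, 1.84 and 1.93 FPKM in fiber cells, against 4.97, 4.60 and 4.31 FPKM in epithelial cells (log2 fold change -1.02, standard error 0.20, limma adjusted p = 0.00183), but was not called relative to the median gene, at -0.41. SLC25A22 was at 1.06, 1.65 and 1.49 times the sum of both in fiber cells, against 0.0907, 0.198 and 0.122 times in epithelial cells (two-sided exact permutation p = 0.1), so the order of these glutamate carriers differed between the cell types.

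SLC25A15, the ornithine carrier of the urea cycle in mammals, had 1.85, 1.38 and 1.55 FPKM in fiber cells, against 4.99, 3.37 and 3.92 FPKM in epithelial cells (log2 fold change -1.30, standard error 0.18, limma adjusted p = 0.000246). SLC25A38, a glycine carrier that serves heme synthesis, had all fiber libraries above the epithelial ones, at 3.76 ± 0.465 FPKM in fiber cells and 2.89 ± 0.0396 FPKM in epithelial cells (SD, n = 3 each), but its log2 fold change of 0.36 fell short of the threshold. SLC25A44, a carrier of branched-chain amino acids, fell just short too, at 0.396, and its values are also those of BGLAP and NNF1. SLC25A38 and SLC25A44 were both called higher under centring, 75th percentile scaling and quantile normalization.

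Carriers of cofactors, nucleotides and metals split as well, with 2 of the 11 tested called higher (18.2%) and 5 lower (45.5%). Over all tested entries these shares were 13.1% and 57.7%. SLC25A26, which brings the methyl donor S-adenosylmethionine into mitochondria, had 1.13, 1.43 and 1.50 FPKM in fiber cells, against 4.71, 5.63 and 5.86 FPKM in epithelial cells. It fell (log2 fold change -1.92, standard error 0.15, limma adjusted p = 1.61e-05) and lay at -1.31 relative to the median gene. SLC25A37, mitoferrin-1, the iron importer that developing red cells depend on, had 0.321, 0.125 and 0.273 FPKM in fiber cells, against 1.14, 1.12 and 0.841 FPKM in epithelial cells (log2 fold change -1.77, standard error 0.29, limma adjusted p = 0.0007), and it was not called under quantile normalization. Like SLC25A29, it passed the filter of 0.5 FPKM only through its epithelial libraries (fiber mean 0.240 FPKM), which fixed the direction of its change. The erythroid markers summed higher in fiber cells. HBZ (5.29 to 7.50 FPKM in fiber cells, log2 fold change 5.76) and HBAA (2.22 to 6.59 FPKM, 4.86) were called higher and EPB42 lower (-1.53), and RHAG, HBBR and HBE were at 0 throughout. SLC25A28, mitoferrin-2, was called lower at -0.60 (limma adjusted p = 0.00159), with 4.54 ± 0.326 FPKM in fiber cells and 6.94 ± 0.737 FPKM in epithelial cells (SD, n = 3 each), and lay at 0.011 relative to the median gene.

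The carriers of pyrimidine nucleotides, SLC25A33 and SLC25A36, were called lower at log2 fold changes of -0.83 and -0.86, and neither was called relative to the median gene. The values of SLC25A33 are also those of PIK3CD and TMEM201. SLC25A42, a coenzyme A carrier, had 3.65, 3.09 and 3.12 FPKM in fiber cells, against 2.02, 2.60 and 2.04 FPKM in epithelial cells (log2 fold change 0.55, standard error 0.14, limma adjusted p = 0.00782). SLC25A17, a cofactor carrier of the peroxisome and so not mitochondrial, had 24.8, 28.1 and 22.5 FPKM in fiber cells, against 17.6, 20.1 and 16.7 FPKM in epithelial cells (log2 fold change 0.47, standard error 0.11, limma adjusted p = 0.00492), a call lost without fiber replicate 2 (0.39). All fiber libraries of both were above the epithelial ones, and neither was called in the test against 0.4. SLC25A39, a glutathione carrier, was the most abundant of this group, with 23.3, 29.5 and 23.8 FPKM in fiber cells, against 22.7, 21.5 and 21.6 FPKM in epithelial cells, and was not called, although its libraries did not overlap. It was called higher under centring (0.82) and 75th percentile scaling (0.51). SLC25A16 and SLC25A32 were not called either, with log2 fold changes of -0.042 and -0.023, or 0.57 and 0.58 relative to the median gene, where both were called higher.

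Of the carriers of carboxylates and acylcarnitine, SLC25A20 alone was called with the deposited FPKM. It brings acylcarnitines in for fatty acid oxidation and had 11.2, 9.51 and 10.5 FPKM in fiber cells, against 19.9, 18.6 and 19.3 FPKM in epithelial cells (log2 fold change -0.89, standard error 0.09, limma adjusted p = 5.18e-05), or -0.28 relative to the median gene, where it was not called. The citrate carrier SLC25A1 averaged 8.91 ± 0.729 FPKM in fiber cells and 9.19 ± 0.632 FPKM in epithelial cells (SD, n = 3 each) and overlapped, although it was called higher relative to the median gene, at 0.56. SLC25A21, an oxodicarboxylate carrier, was at -0.27 and not called.

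SLC25A43, a carrier of unknown substrate, had 8.09, 11.1 and 11.3 FPKM in fiber cells, against 5.34, 5.98 and 6.58 FPKM in epithelial cells, and rose with no overlap (log2 fold change 0.75, standard error 0.15, limma adjusted p = 0.00203). It is the next protein-coding gene to SLC25A5 in the same gene order, and its ratio to SLC25A5 was 0.233 ± 0.0506 in fiber cells and 0.133 ± 0.0225 in epithelial cells (SD, n = 3 each; two-sided exact permutation p = 0.1). SLC25A30 and SLC25A14, relatives of the uncoupling proteins, were called lower at -1.11 and -0.67, but SLC25A30 has the values of COG3, and SLC25A14 those of RBMX2 and RAB33A. Relative to the median gene, SLC25A14 lay at -0.067 and was not called. SLC25A46, an outer membrane protein that shapes mitochondria, and SLC25A34, whose values are those of PLEKHM2, were not called with the deposited FPKM. SLC25A34 was called higher under centring, 75th percentile scaling and quantile normalization, and SLC25A46 under centring.

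Import factors outside these symbols were compared from a written list, which also held cristae subunits and mitochondrial proteases. Of 26 genes found in the table, 2 were called higher (7.69%, where 13.1% of all tested entries were) and 8 lower (30.8%, against 57.7%), the median change being -0.076 on the log2 scale, and 15 were called higher (57.7%, against 30.2%) and 1 lower (3.85%, against 29.3%) relative to the median gene. The matrix chaperonin genes HSPD1 and HSPE1 were lower, with 32.6 ± 1.20 FPKM in fiber cells and 55.1 ± 4.01 FPKM in epithelial cells for HSPD1 (SD, n = 3 each; log2 fold change -0.75, limma adjusted p = 7.79e-05) and a log2 fold change of -0.71 for HSPE1, but neither was called relative to the median gene. HSPA9, the motor chaperone that pulls proteins into the matrix, was level at 0.014 with the deposited FPKM, but was called higher relative to the median gene, at 0.62. AFG3L2, a protease of the inner membrane, and MICOS13, a cristae subunit, were the genes called higher, at 0.65 and 0.78. IMMP1L, an inner membrane peptidase, was the gene called lower on both scales, at -1.14.

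Of 24 tested genes on a list of other mitochondrial transporters and their regulators, 3 were called higher (12.5%) and 11 lower (45.8%), the median change being -0.31, and 9 were called higher (37.5%) and 2 lower (8.33%) relative to the median gene. The share called higher was near that of all tested entries, 13.1% as deposited and 30.2% when centred, and the shares called lower stood beside 57.7% and 29.3%. SFXN1, a serine carrier outside the SLC25 family, averaged 40.3 ± 2.09 FPKM in fiber cells and 16.2 ± 2.75 FPKM in epithelial cells (SD, n = 3 each; log2 fold change 1.32). SMDT1, a subunit of the calcium uniporter, was called higher at 0.49. MCUB, an inhibitory subunit of the same uniporter, averaged 1.54 ± 0.773 FPKM in fiber cells and 7.08 ± 0.615 FPKM in epithelial cells (SD, n = 3 each) and fell with a log2 fold change of -2.25 (limma adjusted p = 0.000327). The pore subunit MCU was not called at 0.053 (standard error 0.37), nor at 0.66 relative to the median gene. Its libraries scattered and overlapped, at 1.30 to 2.88 FPKM in fiber cells and 1.26 to 2.79 FPKM in epithelial cells.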

How the data were processed

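RNA-seq of 3 fiber and 3 epithelial libraries was analysed from the authors' table. Per the labels and the methods of the study, total RNA was isolated with TRIZOL and stranded libraries were sequenced paired-end. Reads were trimmed with cutadapt, mapped to galGal6 with Bowtie2 and HISAT2 and assembled with StringTie. The deposited FPKM values were used as given, with 0.0001 in place of 0. The authors' averages, fold changes, p-values and q-values were not used. FPKM hold no read counts, and the most common ratio of low values between libraries covered at most 4.93% of entries, so depth was not recovered and precision comes from the replicates alone. Computations used Python 3.11.15 with pandas 2.3.3 and scipy 1.17.1, and R 4.3.3.

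The 10818 entries averaging 0.5 FPKM or more were fitted as log2(FPKM + 0.1) with limma 3.58.1 (mean-variance trend, cell type only) and adjusted by the Benjamini-Hochberg method. On simulated data of this comparison with 10818 genes, 77 of 100 genes changed by 1 and 94 of 100 changed by 2 on the log2 scale were called, with 12 of 10618 unchanged genes. The changed genes were drawn only from those above about 1 FPKM, so these rates do not cover members below that level. The simulation had no shift between the cell types, unlike the data with their median of -0.62, so it did not cover scaling between libraries. Ratios within a library were compared by two-sided exact permutation. Replicates were biological triplicates per the labels. By the study's methods each came from pooled lenses dissected into both cell types, so 1 pool may have supplied both groups, and which libraries shared a pool is not given in the sources used here. Alternatives were a pseudocount of 1 or 0.01, a filter at 1 FPKM or none, median centring, 75th percentile scaling, quantile normalization, identical entries counted once, limma without trend or with a minimum change of 0.4 (treat), a replicate block and leaving out each library. Values in every library are given for the most abundant members, the largest changes in each direction, all members called higher and paralogs called in opposite directions. Members and lists were chosen with earlier results of these data known. RefSeq gene order came from GRCg7b, which matched 56 of the 59 symbols, and no coordinates or sequences were used. The values of 1 carrier and of 1 other transporter enter the counts and sums but are not reported here.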

Additional observations from a re-analysis of the deposited data

How the results depend on the processing

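Scaling between libraries moved the counts most. With median centring the import machinery had 13 genes called higher and 1 lower and the channels and carriers 16 and 8, with medians of 0.52 and 0.33. With 75th percentile scaling 8 import genes were called higher and 2 lower, 11 carriers were called higher and 13 lower, and the medians were 0.21 and 0.019. With quantile normalization 8 import genes were called higher and 0 lower by limma (1 lower at an unadjusted p under 0.05), 12 carriers were called higher and 10 lower, and the medians were 0.29 and 0.035. The other listed genes combined had 24 called higher and 3 lower with centring, 14 and 10 with 75th percentile scaling and 21 and 3 with quantile normalization, against 5 and 19 as deposited. The test against 0.4 (treat) left 3 import genes higher and 2 lower, 3 carriers higher and 13 lower, and 4 of the other genes higher and 8 lower. Shares over all tested entries were taken only with the deposited FPKM and with centring. Counts at the other settings, here and below, therefore describe the listed genes alone and cannot be set against all entries. A filter at 1 FPKM and counting identical entries once, which both remove members, each gave a carrier median of -0.16.

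Among members called in at least one of the compared fits, signs changed with centring for PMPCB (0.59), SLC25A1 (0.56), SLC25A16 (0.57), SLC25A32 (0.58), SLC25A46 (0.56), SLC25A5 (0.57), TIMM13 (0.45) and TIMM8A (0.44), which were then called higher, and for SLC25A28 (0.011), TIMM50 (0.18), TIMMDC1 (0.14) and TOMM70 (0.15), which were no longer called. With quantile normalization they changed for SLC25A14 (0.029), SLC25A16 (0.42), SLC25A32 (0.54) and TIMMDC1 (0.12). Centring moves all entries by the same amount within a library, and which scale matches the RNA content of the cells was not tested.

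Leaving out each library in turn gave 5 to 6 import genes higher and 4 to 6 lower, 6 to 8 carriers higher and 15 to 16 lower, and medians of -0.13 to -0.025 for import and -0.35 to -0.24 for carriers. For the other genes it gave 5 to 7 higher and 18 to 20 lower. Without epithelial replicate 3, SLC25A14 was no longer called (-0.58), and TIMM21 was called lower (-0.50). With the replicate block the counts were 5 and 6 for import and 7 and 16 for carriers, with no member's call changed, and 6 and 19 for the other genes. The replicate numbers are shared between the cell types. Same-numbered libraries deviated together weakly, at r of 0.0858, 0.0659 and 0.0666, each the highest for its number, while differently numbered ones had r of -0.0496 to -0.0235. Libraries of both cell types may share a pool of lenses, but which ones do is not given. They were therefore not taken as pairs, and the exact permutation p-values hold only for unpaired libraries. Depth is unknown, and members under 1 FPKM such as TIMM10B, SLC25A29 and SLC25A37 rest on the smallest values.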
